A study of Mus musculus with 4 samples.

Results

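The integrated stress response genes described here are 10 mouse genes, Atf4, Atf5, Ddit3, Atf3, Trib3, Sesn2, Ddit4, Asns, Chac1 and Vldlr, out of 16593 genes measured on the arrays. They were taken by gene symbol from the platform annotation, and all 10 were on the array, with 18 probes of 25697 in all. Each gene is represented by its brightest probe, the one with the highest mean log2 intensity over the 4 arrays.

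Total RNA was hybridised to Illumina mouse bead arrays, 1 array per sample, for 2 groups of 2 samples called biological replicates in the labels. EpiSCs are pluripotent epiblast stem cells, grown in medium with 20% serum replacement (KSR) and 10 ng/ml bFGF. The parnate/mAMFGi samples are cells labelled as converted mouse ESCs, obtained from EpiSCs with small molecules. Parnate (tranylcypromine) inhibits the histone demethylase LSD1, and the labels do not spell out mAMFGi. The growth protocol given for these cells is an ES cell medium with 10% fetal bovine serum and 1000 units/ml LIF, and it does not say whether the compounds were present at harvest. Both groups were kept on irradiated mouse embryonic fibroblast (MEF) feeders, and the labels do not say whether feeders were removed before RNA extraction. Medium and conversion therefore cannot be told apart, and neither genotype nor number of cell lines or clones is stated. The question addressed is how these stress response genes differ between converted cells and EpiSCs.

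In the integrated stress response, kinases that sense amino acid shortage, misfolded protein in the endoplasmic reticulum (ER), double-stranded RNA or low heme phosphorylate the translation factor eIF2. General protein synthesis then slows, while a few mRNAs with upstream reading frames, among them that of the transcription factor ATF4, are translated more. ATF4 activates genes for amino acid synthesis, uptake and tRNA charging through C/EBP-ATF response elements (CAREs), and also genes for feedback and cell death. ATF4 is controlled largely at translation, so its mRNA on an array does not report its protein.

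RefSeq start windows (GRCm38.p6, 250 bases before to 50 after each gene start) were searched for the CARE core TGATGNAA on both strands. All 10 genes had at least 1 window and 12 windows were found in all. The core was present in windows of 5 of the 10 genes (50%), against 4.51% of 27025 genes with a window. These genes are in part known ATF4 targets, so this share describes how the list was composed. The stretches around the 5 matches are printed 5′ to 3′ on the strand of the gene, with the match in capitals. Positions count from the start on which the window was set, at +1. For Vldlr, which has several windows, this is the downstream start, in the window chr19:27216770-27217069. The Vldlr window chr19:27216234-27216533, at the upstream start, holds no match.
Asns, chr6:7693205-7693252, minus strand, core beginning at −23: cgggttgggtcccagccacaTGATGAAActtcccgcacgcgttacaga
Atf3, chr1:191183416-191183463, minus strand, core beginning at −110: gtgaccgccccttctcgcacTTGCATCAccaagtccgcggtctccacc
Chac1, chr2:119351029-119351076, plus strand, core beginning at −193: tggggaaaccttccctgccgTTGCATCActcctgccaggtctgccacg
Trib3, chr2:152344019-152344066, minus strand, core beginning at 15: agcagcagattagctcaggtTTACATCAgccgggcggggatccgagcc
Vldlr, chr19:27216800-27216847, plus strand, core beginning at −200: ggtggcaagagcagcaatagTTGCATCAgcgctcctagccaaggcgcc
Asns holds the core on the strand of the gene, whereas Atf3, Chac1, Trib3 and Vldlr hold it on the opposite strand. The windows of Atf4, Atf5, Ddit3, Ddit4 and Sesn2 hold no match, which says only that these letters are not in those windows. Neither the CRE TGACGTCA nor the ER stress response element (CCAAT and CCACG spaced by 9 bases) was found in any of the 12 windows, against 1.79% and 0.119% of all 32851 windows.

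The 10 genes did not move as one group. Atf5, Sesn2 and Trib3 rose in parnate/mAMFGi cells, by 2.59-fold to 3.41-fold. Ddit3, Vldlr and Ddit4 fell, by 2.79-fold to 3.19-fold, and Atf3 fell by 1.58-fold. Atf4, Asns and Chac1 did not pass the test. Calls are from limma on log2 intensities, with Benjamini-Hochberg adjustment over all 25697 probes and a threshold of 0.05. Thus 3 of 10 genes rose and 4 fell, where 20.2% of all 16593 genes were called higher and 21.2% lower. With a change of at least 2-fold required as well, 3 rose and 3 fell, against 5.11% and 6.32% of all genes. The 10 genes and the lists below were chosen with earlier results of these data known. Their shares and sizes of change beside all genes may in part reflect that choice. The median log2 fold change of the 10 genes was −0.09 and the median absolute change 1.43, beside 0.02 and 0.19 over all genes. Of all genes, 10123 averaged under 100, a level chosen after the values were seen, where folds are compressed, against 1 of the 10 (Atf3). Among the 6470 genes that averaged at least 100, 33.8% were called higher and 39.5% lower. The 3 and 4 of 10 called are close to that background, though Atf3, among the 4, averaged under 100. At least 2-fold, 10.6% of the 6470 genes were higher and 14.4% lower. The median log2 fold change of the 6470 was −0.06 and their median absolute change 0.54.

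**Figure D1:**
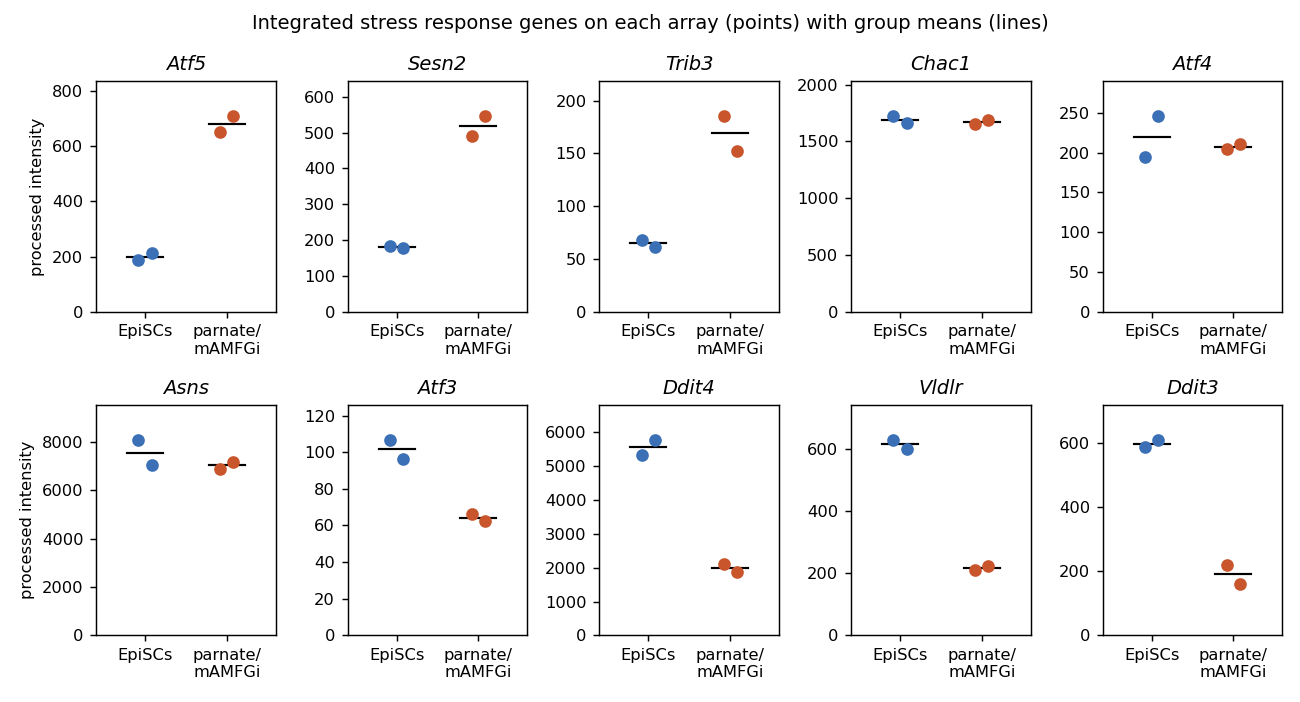
Processed intensity (linear axis from 0, a separate scale per gene) of each integrated stress response gene on the 2 EpiSC arrays (blue) and the 2 parnate/mAMFGi arrays (orange), with the group mean as a line. The groups are apart for Atf5, Sesn2, Trib3, Atf3, Ddit4, Vldlr and Ddit3 and overlap for Chac1, Atf4 and Asns. Groups of 2 arrays can stand apart without a difference, and how many of all genes do so was not counted. Heights of different genes come from different probes and cannot be compared.

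Atf4 encodes the central transcription factor of the response. Its probe read 194.0 and 245.8 on the EpiSC arrays and 204.8 and 210.3 on the parnate/mAMFGi arrays. Both parnate/mAMFGi values lie between the 2 EpiSC values. The log2 fold change was −0.07 (SE 0.11, adjusted p = 0.698, limma), with a 95% confidence interval from −0.32 to 0.17. On the linear scale this interval runs from 0.804 to 1.12 times the EpiSC level, so a 2-fold change of this mRNA in either direction lies outside it.

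Atf5 encodes a related basic leucine zipper factor that, like ATF4, is translated through upstream reading frames and is also induced as an mRNA. It read 186.1 and 214.0 in EpiSCs and 653.0 and 708.9 in parnate/mAMFGi cells. Both parnate/mAMFGi arrays lay far above both EpiSC arrays. The means were 200.05 ± 19.7 and 681 ± 39.5 (SD, n = 2), which gave a log2 fold change of 1.77 (SE 0.10, adjusted p = 3.41e-09, limma). Of all genes, 3.26% changed by at least this much in either direction.

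Ddit3 encodes CHOP, a C/EBP family factor that acts downstream of ATF4 and promotes cell death under lasting ER stress. Its brighter probe read 585.6 and 608.3 in EpiSCs and 219.3 and 160.1 in parnate/mAMFGi cells, with the groups far apart. The means were 597 ± 16.1 and 189.7 ± 41.9, a log2 fold change of −1.67 (SE 0.13, adjusted p = 5.96e-08, limma). The second probe read 328.9 and 413.6 against 144.9 and 109.1 and gave a log2 fold change of −1.55 (adjusted p = 2.76e-07, limma). On both probes parnate/mAMFGi replicate 2 was the lowest array.

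Atf3 encodes a stress-induced factor of the ATF and CREB family that lies downstream of ATF4. It read 106.7 and 96.4 in EpiSCs and 66.2 and 62.4 in parnate/mAMFGi cells. The parnate/mAMFGi values were close to the array medians of 50 to 52. The log2 fold change was −0.66 (SE 0.10, adjusted p = 5.69e-05, limma), and 20.6% of all genes changed at least as much. Because background or an offset remained in every value (the lowest on any array was 25.5), folds of genes that read this low are understated.

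Trib3 encodes a pseudokinase that is induced by ATF4 and CHOP and dampens their activity in a feedback loop. It read 68.3 and 61.7 in EpiSCs and 185.2 and 152.7 in parnate/mAMFGi cells. The EpiSC values were close to the array medians and the parnate/mAMFGi values well above them. The log2 fold change was 1.37 (SE 0.11, adjusted p = 1.05e-07, limma). Trib3 and Ddit3 thus changed in opposite directions.

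Sesn2 and Ddit4 both encode stress-induced inhibitors of mTORC1, the kinase complex that couples growth to nutrients, and they also changed in opposite directions. Sesn2 encodes sestrin 2, a leucine sensor that restrains mTORC1 through the GATOR complexes. Its brighter probe read 183.3 and 176.8 in EpiSCs and 492.1 and 546.0 in parnate/mAMFGi cells, a log2 fold change of 1.53 (SE 0.10, adjusted p = 9.28e-09, limma). The dimmer probe, at 62.3 and 56.2 against 110.8 and 108.1, also rose, by 0.89 on the log2 scale (adjusted p = 2.61e-06, limma). On both probes the parnate/mAMFGi arrays read above the EpiSC arrays, which groups of 2 arrays can do without a difference. Ddit4 encodes REDD1, which acts through the TSC complex and is also induced by hypoxia and glucocorticoids. It read 5324 and 5770 in EpiSCs and 2105 and 1870 in parnate/mAMFGi cells, and its log2 fold change was −1.48 (SE 0.10, adjusted p = 1.73e-08, limma).

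The enzyme genes did not pass the test. Asns encodes asparagine synthetase, a standard ATF4 target. Its brightest probe read 8086 and 7042 in EpiSCs and 6895 and 7180 in parnate/mAMFGi cells, overlapping between groups, for a log2 fold change of −0.10 (95% confidence interval −0.32 to 0.11, adjusted p = 0.513, limma). The other probes pointed up without passing, at 0.18 (adjusted p = 0.207, limma) and 0.28 (adjusted p = 0.0845, limma), so the direction is not settled. Chac1 encodes an enzyme that breaks down glutathione and is induced through ATF4, ATF3 and CHOP. It read 1722 and 1661 in EpiSCs and 1656 and 1691 in parnate/mAMFGi cells, the closest groups of the 10 genes. The log2 fold change was −0.02 (95% confidence interval −0.21 to 0.18, adjusted p = 0.931, limma).

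Vldlr encodes the very low density lipoprotein receptor, which takes up lipoproteins and binds Reelin, and is induced through PERK and ATF4 in mouse liver cells. Its brightest probe read 629.4 and 601.3 in EpiSCs and 209.2 and 225.0 in parnate/mAMFGi cells, again far apart, and its log2 fold change was −1.50 (SE 0.09, adjusted p = 8.91e-09, limma). Of 5 probes, the 3 brightest fell by at least 1.21 on the log2 scale. The fourth, at 48.6 and 54.8 against 40.0 and 39.3, fell by 0.38 (adjusted p = 0.00561, limma), and the fifth, at 42.3 to 46.3 on all arrays, did not pass (adjusted p = 0.971, limma). The last 2 read at or below about the array medians, where a change would be compressed.

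**Figure D2:**
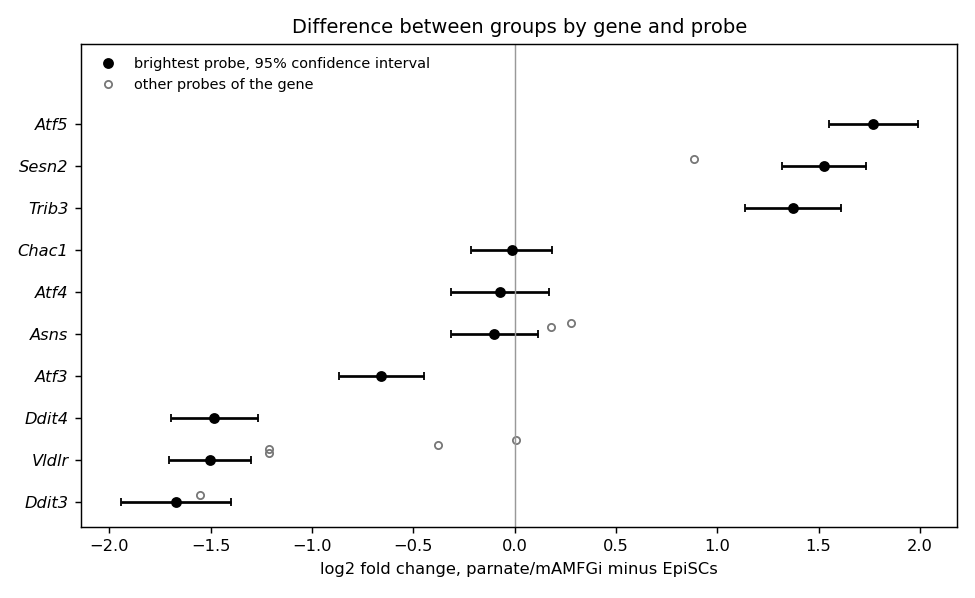
Log2 fold change (parnate/mAMFGi minus EpiSCs) of each integrated stress response gene, with filled points and bars for the brightest probe and its 95% confidence interval from limma, and open circles for other probes of the gene. Intervals of Atf5, Sesn2 and Trib3 lie above 0, those of Atf3, Ddit4, Vldlr and Ddit3 below 0, and those of Chac1, Atf4 and Asns span 0.

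Genes that share a family with the 10 genes did not follow them in every case. Of 6 paralogs measured, 2 were called higher, 3 lower and 1 in neither direction. For this list and those below, the shares over all genes were 20.2% higher and 21.2% lower. Among genes averaging at least 100 they were 33.8% and 39.5%. Sesn1, a sestrin gene known as a p53 target, read 955.7 and 976.7 in EpiSCs and 211.9 and 201.3 in parnate/mAMFGi cells, a fall of 2.23 on the log2 scale (adjusted p = 1.22e-10, limma) beside the rise of Sesn2. Sesn3 rose by 0.34 (adjusted p = 0.00792, limma) and Ddit4l by 0.25 (adjusted p = 0.0417, limma). Neither call held when 1 parnate/mAMFGi array was left out, with adjusted p = 0.0716 and 0.166 without replicate 1 and 0.0712 and 0.189 without replicate 2. Ddit4l also lost its call without EpiSC replicate 1 (adjusted p = 0.114) or EpiSC replicate 2 (adjusted p = 0.0515), under scaling to a common median (0.20, adjusted p = 0.106) and with a trended prior (adjusted p = 0.110). Trib1 and Trib2 fell by 0.62 and 0.51, against the rise of Trib3, though Trib1 read at most 69.4. Chac2 stood at 0.05 and did not pass.

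Upstream of eIF2, 3 of 6 kinase and regulator genes rose and 3 did not pass (median log2 fold change 0.45). Eif2ak1, the heme-regulated kinase HRI, read 170.2 and 155.3 in EpiSCs against 423.3 and 375.1 after conversion (log2 fold change 1.29, SE 0.10, adjusted p = 8.15e-08, limma). Eif2ak2, the double-stranded RNA kinase PKR, rose by 0.91. Impact, an imprinted gene whose product inhibits the amino acid sensor GCN2, rose by 1.17. Eif2ak3, the ER stress kinase PERK, read 355.4 and 269.3 in EpiSCs and 270.2 and 303.4 in converted cells (adjusted p = 0.567, limma), with overlapping groups. Without EpiSC replicate 2 it was called lower, with a log2 fold change of −0.31 (adjusted p = 0.0425). Eif2ak4, which encodes GCN2, read 36.5 to 37.9 on all arrays, below their medians.

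Among eIF2, eIF2B and eIF2 phosphatase subunits, 4 of 8 genes rose, 2 fell and 2 did not pass (median 0.29). The risers encode subunits of eIF2B, the exchange factor that phosphorylated eIF2 inhibits, with Eif2b4 at 0.65, Eif2b1 at 0.58, Eif2b2 at 0.37 and Eif2b5 at 0.30. Their number was 2 without parnate/mAMFGi replicate 1. Ppp1r15a (GADD34), the stress-induced subunit that directs dephosphorylation of eIF2, read 273.4 and 258.2 in EpiSCs and 210.3 and 152.4 in parnate/mAMFGi cells. It fell by 0.57 (adjusted p = 0.00218, limma). Without parnate/mAMFGi replicate 2 its log2 fold change was −0.34 (adjusted p = 0.0769), and Eif2s3x (−0.34), also called lower, was likewise not called, so that none of the 8 was then called lower. Without EpiSC replicate 1 or without parnate/mAMFGi replicate 1, 1 was. The constitutive counterpart Ppp1r15b stood at 0.28 and did not pass (adjusted p = 0.0651, limma), but was called higher without EpiSC replicate 2, at 0.43 (adjusted p = 0.00718).

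Of 12 other ATF, CREB, C/EBP and CNC factor genes, 2 rose, 2 fell and 8 did not pass (median −0.01). Cebpb, which encodes a partner of ATF4 on the CARE, stood at 0.01, and Cebpg, at 57.7 to 73.7 on all arrays, stood at 0.13. Atf6b, an ER membrane-bound factor, rose by 0.94 and Creb3, also membrane-bound, fell by 1.24. Nfe2l2 (NRF2), the main factor of the oxidative stress response, rose by 0.52 on a probe reading 98.2 to 163.1. Without parnate/mAMFGi replicate 2 its adjusted p was 0.0508, and 1 gene of the list was called higher and 1 lower. Without parnate/mAMFGi replicate 1, 1 was called lower. The call of Creb1 (−0.40) rests on a probe reading 45.3 to 69.3 and was lost without EpiSC replicate 1 and without either parnate/mAMFGi replicate (adjusted p of 0.0811 to 0.144), and another Creb1 probe was called higher (0.45).

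Other genes known as ATF4 targets also went both ways, with 2 of 11 higher, 4 lower and 5 not past the test (median −0.21). Nupr1, a small stress-induced chromatin protein, read 93.1 and 86.7 in EpiSCs and 770.2 and 593.0 in parnate/mAMFGi cells, a rise of 2.91 on the log2 scale (SE 0.12, adjusted p = 8.90e-11, limma). Eif4ebp1, which encodes the translation repressor 4E-BP1, rose by 0.91. The angiogenic factor gene Vegfa fell by 1.84, Ndrg1 by 1.77, Gadd45b by 1.00 and the autophagy receptor gene Sqstm1 by 0.69. Vegfa and Ndrg1, like Ddit4, are also known as hypoxia-induced genes. No list of such genes was examined, and a link to oxygen was not tested. Vegfa read 488.3 and 487.4 in EpiSCs and 133.2 and 138.7 in parnate/mAMFGi cells on its brightest probe, and its dimmest probe, at 34.4 to 41.4, did not pass.

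Amino acid transporter genes were mostly higher in parnate/mAMFGi cells. Over all genes 20.2% were called higher, as were 33.8% of genes averaging at least 100. Of 9 transporter genes measured, 8 rose, 0 fell and 1, Slc1a5, did not pass (median log2 fold change 0.64), and 3 averaged under 100. Without parnate/mAMFGi replicate 2, 5 were called higher. Slc38a2, which encodes the neutral amino acid transporter SNAT2, read 566.7 and 889.0 in EpiSCs and 5403 and 6996 in parnate/mAMFGi cells. Its log2 fold change was 3.11 (SE 0.17, adjusted p = 1.88e-09, limma). A second Slc38a2 probe rose by 1.77, and the third, at 51.7 to 55.9, did not pass. The glycine transporter gene Slc6a9 rose by 0.98, the leucine carrier gene Slc7a5 by 0.67 and its partner chain Slc3a2 by 0.64. The cystine carrier gene Slc7a11 rose by 0.67 while reading at most 62.8.

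Of 12 tRNA synthetase genes named as ATF4 targets, 8 rose, 1 fell and 3 did not pass (median 0.48). Tars rose by 0.82, Aars by 0.76, Wars by 0.71 and Nars by 0.53, and Gars fell by 0.44. Of 7 other cytosolic tRNA synthetase genes, 3 rose, 1 fell and 3 did not pass (median 0.29), with Farsa at 1.47, Vars at 0.66, Rars at 0.54 and Qars at −0.51. Without EpiSC replicate 1, 5 of these 7 were called higher. The difference between these synthetase lists was not tested. Of 10 amino acid synthesis genes, 3 rose, 2 fell and 5 did not pass (median 0.14). Shmt2 and Mthfd2, of the mitochondrial one-carbon pathway, rose by 0.53 and 0.52, whereas Phgdh, the first enzyme of serine synthesis, fell by 0.87. Got1 stood at −0.38 (adjusted p = 0.0200, limma), a call lost with normexp and offset 50 (adjusted p = 0.0572), with log2(value + 50) (0.0937), without EpiSC replicate 2 (0.101) and without parnate/mAMFGi replicate 2 (log2 fold change −0.19, adjusted p = 0.356). In that last fit 1 gene of the list was called lower.

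Genes of the ER branch of the stress response were lower or did not pass, with 1 exception. Of 17 measured ER chaperone genes and targets of ATF6 or XBP1, 7 fell, 1 rose and 9 did not pass (median −0.22). Over all genes 21.2% were called lower, as were 39.5% of genes averaging at least 100. The 7 of 17 are close to that second share, though 4 of the 17 averaged under 100. Hsp90b1, which encodes the chaperone GRP94, read 11895 and 10098 in EpiSCs against 4332 and 4933 after conversion (log2 fold change −1.25, SE 0.11, adjusted p = 2.58e-07, limma). Calr fell by 0.96, Herpud1 by 0.88, Hspa5 (BiP) by 0.76 and Xbp1 by 0.63. Sel1l, of the ER degradation machinery, rose by 0.73. Without EpiSC replicate 1, 2 genes of the list were called higher.

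The p53 list was included because Sesn2 and Sesn1 are also p53 targets. Of 11 measured genes, 7 fell, 0 rose and 4 did not pass (median −0.56). Over all genes 21.2% were called lower, as were 39.5% of genes averaging at least 100. The CDK inhibitor gene Cdkn1a read 3991 and 4017 in EpiSCs and 1601 and 1436 in parnate/mAMFGi cells, a fall of 1.40 on the log2 scale (adjusted p = 2.22e-08, limma). The cell death genes Pmaip1 and Bbc3 fell by 1.11 and 0.99, and Ccng1 by 0.99. A second Ccng1 probe stood at 0.34 and a dim Bbc3 probe at 0.03, neither past the test. Of 16 genes of mTORC1 and its amino acid sensors, 6 rose, 2 fell and 8 did not pass (median 0.06). Tsc2, part of the complex through which REDD1 acts, rose by 0.67 and Castor1, an arginine sensor gene, by 0.61. Nprl2, of GATOR1, and Mios, of the GATOR2 complex that sestrin 2 binds, fell by 1.09 and 0.94. Of 5 measured genes of the Reelin pathway and related receptors, 1 rose, 2 fell and 2 did not pass (median 0.07). Reln, the ligand of the Vldlr receptor, fell by 0.72 and Apoe by 0.44, and Lrp1 rose by 0.43. The Lrp1 call, on a probe reading 64.9 to 103.4, was not kept with log2(value + 50) (0.27, adjusted p = 0.0533), without EpiSC replicate 2 (0.27, adjusted p = 0.0733) or without parnate/mAMFGi replicate 1 (adjusted p = 0.132). The Apoe call was not kept without parnate/mAMFGi replicate 2 (adjusted p = 0.143), and 1 gene was called lower without parnate/mAMFGi replicate 2.

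**Figure D3:**
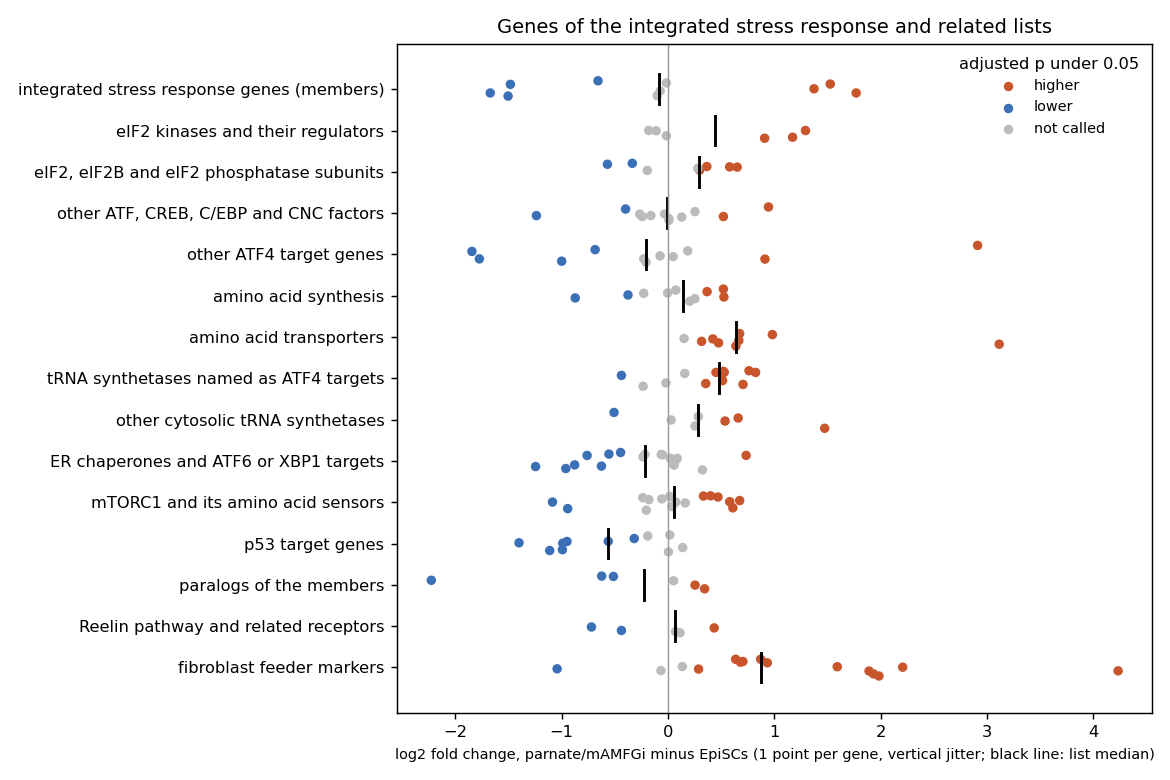
Log2 fold change (parnate/mAMFGi minus EpiSCs) of each gene, by list, with the list median as a black line, orange for genes called higher, blue for genes called lower and grey for genes not called (limma, adjusted p under 0.05). The 10 integrated stress response genes fall into 3 higher, 4 lower and 3 not called. Amino acid transporters have 8 of 9 genes called higher, and p53 targets 7 of 11 called lower. Over all genes, 20.2% were called higher and 21.2% lower, and among genes averaging at least 100, 33.8% and 39.5%. Genes and lists were chosen with earlier results of these data known.

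Genes with the CARE core in their start window went in both directions. Of the 5 genes whose window holds it, Trib3 rose, Atf3 and Vldlr fell, and Asns and Chac1 did not pass. Among all measured genes with a start window, 504 hold the core, of which 16.9% were called higher and 16.7% lower, beside 20.2% and 20.9% of 13335. Their median log2 fold change was 0.02, as over all of these genes. In the other lists, the core was found by the starts of Nupr1, Aars, Tars, Yars, Slc7a11 and Slc1a4, which rose, and of Herpud1, Gars, Got1, Apoe and Eif2s3x, which fell. It was also found by the starts of Jdp2, Fgf21, Pck2 and Iars, which did not pass.

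The cell type labels were checked on markers. ES cell markers rose in 5 of 6 genes, with Zfp42 at 5.49, Esrrb at 5.06, Dppa3 at 3.92 and Tbx3 at 3.38 on the log2 scale. Nr0b1, at 33.1 to 49.4 on all arrays, stood at 0.32 and did not pass (adjusted p = 0.0514, limma). EpiSC markers rose in 2 of 6 and fell in 4, with Krt18 at −3.44, Lefty1 at −3.20, Fgf8 at −2.74 and Fgf5 at −0.78. The risers were Pou3f1, by 1.19, and Otx2, by 0.59. Of the shared pluripotency markers 2 of 4 rose, Sox2 by 1.66 and Sall4 by 1.42, and Pou5f1 stood at −0.01 and did not pass. Fibroblast feeder markers were higher in parnate/mAMFGi cells in 12 of 15 genes and lower in 1, with Lox at 4.23, Col1a1 at 2.21, Dcn at 1.98 and Col3a1 at 1.93. The marker that fell was Thy1, a surface protein of fibroblasts, at 599.1 and 500.4 in EpiSCs against 293.5 and 240.7 (log2 fold change −1.04, adjusted p = 3.87e-06, limma). Their summed intensity was 2993 to 3597 in EpiSCs and 7086 to 7469 in parnate/mAMFGi cells. None is at 0, since every value keeps a background, and Postn, Twist2 and Pdgfrb read at most 67.9 on any array. Feeder markers thus moved with the groups in the same direction as Atf5, Sesn2 and Trib3, and their part in the results was not tested. In samples of mixed cells, more cells of a type and more RNA per cell cannot be told apart.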

How the data were processed

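Per the labels' protocols, 500 ng of RNA per sample was turned into biotin-labelled cRNA (Illumina TotalPrep kit). The deposited values are the authors' processed intensities, linear, 1 per probe and array. The software, any background correction and the scaling between arrays were not given in the sources used here. Array medians were 50 to 52. A second table of signals before normalization has 8 columns whose names match no label, and these were not used, so detection is unknown.

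Values were log2-transformed with no pseudocount, filter or further normalization. All 25697 probes were fitted with limma 3.58.1 in R 4.3.3 (lmFit, eBayes, group as the term). Differences are signed so that positive values mean higher in parnate/mAMFGi cells. Each probe has 2 residual degrees of freedom, moderated by 11.8 prior ones, so p-values rest largely on a shared spread, and precision is limited by how few arrays there are. What separates the replicates (culture, line or day) is not stated. Slide and scan date are not given. The fit was tested on simulated data.

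Symbols came from the platform annotation, checked by gene identifier against RefSeq (GRCm38.p6). Of 25697 probes, 23978 had 1 symbol, 1719 none and 0 several, 23962 matched the gene table and 0 symbols changed. The 10 genes and 17 lists (161 of 180 list genes measured) were chosen with earlier results of these data known. Named genes are the 10, up to 4 called genes with the largest change per list, and genes fixed by name. Others were named after their values were seen: Xbp1, Sel1l, Sqstm1, Eif4ebp1, Eif2b5, Eif2s3x, Slc3a2, Slc1a5, Gars, Slc1a4, Yars, Jdp2, Fgf21, Pck2, Iars, Otx2, Nr0b1, Thy1, Postn, Twist2 and Pdgfrb. Of 73 named list genes, 24 had several probes and 7 a probe that disagreed in call. Alternatives were quantile, common median and cyclic loess scaling, normexp with offsets of 50 and 16, log2(value + 50), brighter probes only, eBayes with trend or robust, other probe choices, each array left out, and a replicate block.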

Additional observations from a re-analysis of the deposited data

How the results depend on the processing

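All 7 calls among the 10 integrated stress response genes kept their direction and passed in every alternative run, 14 to 16 per gene, with adjusted p-values of at most 0.00646 (Atf3 without parnate/mAMFGi replicate 2). The counts stayed at 3 higher and 4 lower throughout, and calls over all probes stayed within 1.5 times of 5069 higher and 4801 lower. In fits that leave out 1 array, 1 group holds a single array assumed to vary like the other group, so these p-values rest on that group's spread and the prior. They gave 3737 to 4870 higher and 3753 to 4755 lower. Scaling to a common median moved the split to 4406 higher and 5360 lower. The second probe of Sesn2 gave 0.89 and the mean over the probes of Vldlr −0.86. Same-numbered arrays did not deviate together (correlation −0.06 across probes). This rests on 1 replicate difference per group, so it cannot show whether equal numbers share a culture, line or day. With a replicate block, 5084 probes were higher and 4828 lower, with 3 and 4 of the 10 genes.

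Values that changed sign belonged, Creb1 apart, to genes that passed neither as reported nor where the sign turned. Under quantile normalization these were Chac1 (0.0379), Chac2 (−0.00070) and Pou5f1 (0.0401), under cyclic loess Asns (0.021), Chac1 (0.0462) and Pou5f1 (0.127), and under the common median Cebpb (−0.0455). After normexp with offset 50 they were Chac1 (0.0374), Chac2 (−0.0011) and Pou5f1 (0.040), and with offset 16 Chac1 (0.0382) and Pou5f1 (0.0401). The probe mean gave Asns 0.12, Creb1 0.0156 and Pou5f1 0.0155, and the second probe Asns 0.18. Left-out arrays moved Chac1 between −0.0414 and 0.0107, Atf4 between −0.244 and 0.0973, Eif2ak3 between −0.312 and 0.0884, Eif2ak4 between −0.0425 and 0.0118, Chac2 between −0.0594 and 0.166, Cebpb between −0.0296 and 0.0431, Cebpg between −0.0313 and 0.290 and Pou5f1 between −0.0998 and 0.0810. The cause was not tested. Of 73 other named genes, 57 kept call and direction in every alternative, 9 lost a call in at least 1 (Eif2b2, Ppp1r15a, Creb1, Nfe2l2, Got1, Sesn3, Ddit4l, Lrp1 and Apoe) and 2 gained one (Eif2ak3 and Ppp1r15b). With the replicate block, Ppp1r15b was called (adjusted p = 0.0345) and Ddit4l was not (adjusted p = 0.0543).

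Counts of the lists ranged over the alternatives from 5 to 8 (amino acid transporters higher), 7 to 9 and 0 to 2 (tRNA synthetases named as ATF4 targets), 3 to 5 (other synthetases higher), 7 to 8 and 1 to 2 (ER genes lower and higher), 6 to 7 (p53 targets lower), 2 to 5 and 0 to 3 (eIF2 and eIF2B), 2 to 4 (mTORC1 lower), 0 to 2 (paralogs higher), 1 to 3 (ATF and CREB factors, either way), 1 to 2 (amino acid synthesis lower), and 0 to 1 (Reelin pathway higher, kinases and shared pluripotency genes lower, p53 targets higher). Probes that read near the array medians, such as those of Atf3 and Trib3, sit close to background, where folds are compressed.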
